A study of Mus musculus with 6 samples.

Results

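The 38 genes described here encode subunits of the Polycomb repressive complexes PRC1 and PRC2 and of the deubiquitinase complex PR-DUB. They were taken from a list of symbols and matched to the Ensembl identifiers of the deposited count table. All 38 were found among its 48795 identifiers, and all 38 passed the filter on low counts, among 16861 genes tested in all. The RNA is polyadenylated RNA of hippocampus from mice lacking the histone demethylases KDM1A and KDM5C in adult forebrain neurons, with 3 libraries, and from wild-type (WT) mice, with 3 libraries. The double knockout (dKO) carried floxed Kdm1a and Kdm5c alleles and CamKIIα-CreERT2, a recombinase that needs tamoxifen and acts in principal neurons of the forebrain. It removes exons 5 and 6 of Kdm1a and exons 11 and 12 of Kdm5c. Both groups are labelled as given tamoxifen, the stated age at that time being 2 to 3 months, on a C57BL/6J background. The sources used here do not give the time between tamoxifen and dissection, or whether the WT mice carried the recombinase or floxed alleles. Glia and interneurons keep both enzymes, and their RNA is part of every library.

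Polycomb complexes keep genes silent by modifying histone tails. PRC2 methylates lysine 27 of histone H3 through EZH1 or EZH2, which need EED and SUZ12 for activity. PRC1 attaches ubiquitin to histone H2A through RING1 or RNF2 paired with a PCGF protein. Canonical forms of PRC1 read the PRC2 mark with a CBX protein and compact chromatin through PHC proteins, whereas variant forms contain RYBP or YAF2 in place of CBX. PR-DUB, made of BAP1 and an ASXL protein, takes the ubiquitin off again. In neurons these complexes are known for keeping developmental regulators silent after differentiation. KDM1A and KDM5C act on another residue, lysine 4 of histone H3, from which they remove methyl groups.

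Total counts ran from 19309576 to 19700249 per library. Kdm1a measured 75.2, 76.6 and 69.2 CPM in WT and 38.03, 37.6 and 40.0 CPM in dKO (CPM, counts scaled to 1000000 per library), and fell by 47.7% (edgeR, Benjamini-Hochberg adjusted p = 4.32e-07). Kdm5c measured 78.3, 82.8 and 77.2 CPM in WT and 74.3, 72.1 and 65.3 CPM in dKO, a log2 fold change of -0.17 (SE 0.0640) that did not pass the threshold (edgeR, Benjamini-Hochberg adjusted p = 0.143). These are whole-gene counts, so the deleted exons are only part of what they hold. Every library held 3100 to 3404 reads of 4 Y-linked genes and 1 to 13 of Xist, so the libraries were alike in sex, which matters for the X-linked subunits. Of 54 markers in 9 lists of cell types, all tested, 5 rose (Gfap, Mbp, C1ql1, Kl and Sox11) and 1 fell (Neurod6). Of all tested genes 5.90% rose and 1.05% fell. Summed over 6 markers each, astrocytes ran from 2252 to 2639 CPM in WT and 2716 to 2767 CPM in dKO. Oligodendrocytes ran from 4941 to 5360 CPM in WT and 5501 to 6190 CPM in dKO, vascular cells from 181 to 186 CPM in WT and 189 to 201 CPM in dKO, and choroid plexus with ependyma from 41.2 to 58.9 CPM in WT and 74.2 to 133 CPM in dKO. These 4 sums did not overlap between the groups and the other 5 did, among them that of principal neurons at 7181 to 7691 CPM in WT and 6598 to 7342 CPM in dKO. Microglia overlapped only narrowly, at 308.5 to 352.1 CPM in WT and 351.7 to 402.0 CPM in dKO. The part of these differences in the results that follow was not tested. In bulk tissue, fewer cells of a type and less RNA per cell cannot be told apart.

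Of the 38 subunits, 3 changed. Epop and Bcorl1 rose and Cbx8 fell, at an adjusted p under 0.05 in edgeR's quasi-likelihood test (Benjamini-Hochberg adjustment over all tested genes), which is the threshold for "rose" and "fell" throughout. The 2 rises are 5.26% of the subunits, and 5.90% of all tested genes rose. The 1 fall is 2.63% of the subunits, and 1.05% of all tested genes fell. Changes in either direction made up 7.89% of the subunits and 6.95% of all tested genes, so the share of subunits that changed lay near that of all genes. The median log2 fold change of the subunits was -0.03, against -0.01 for all tested genes. Less than a 1.2-fold difference was measured for 31 of the 38 (81.6%), against 77.4% of all tested genes. Of the 35 subunits that did not pass, 33 had a 95% interval of the difference that lay wholly within 1.5-fold in both directions. The other 2 were Phf19 and Scml2, the least abundant subunits, with 10 to 32 reads per library.

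**Figure D1:**
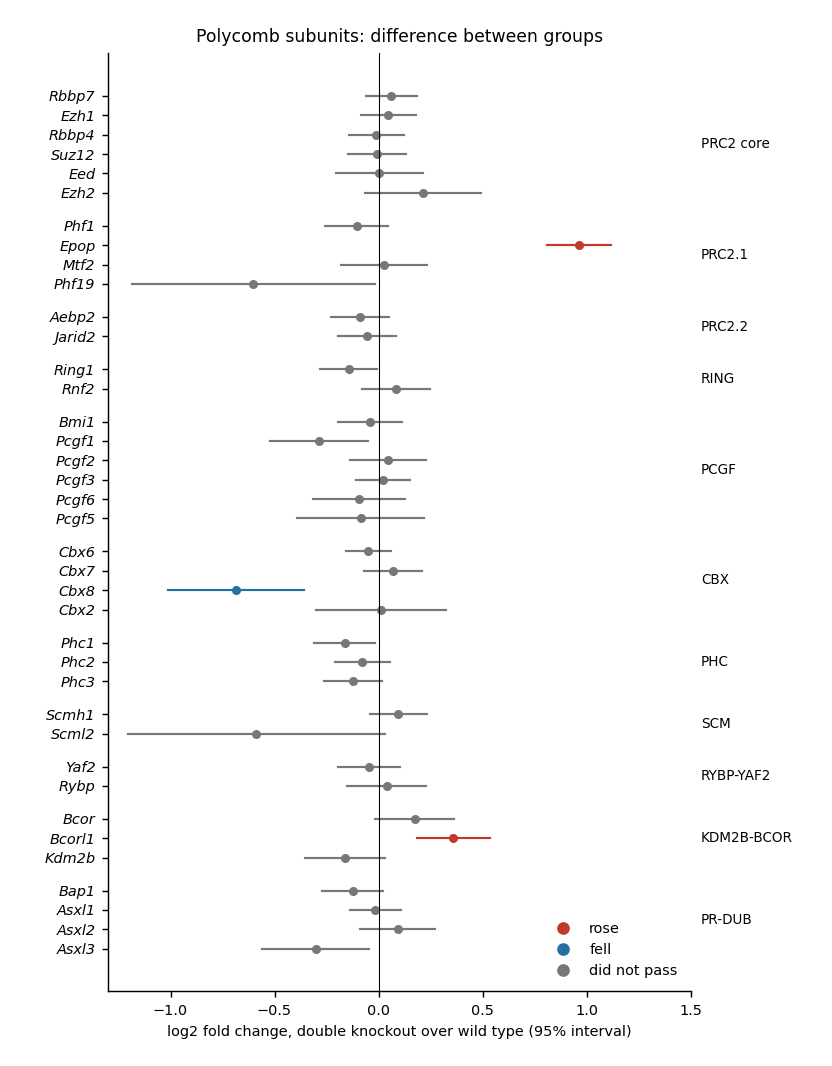
Log2 fold change of each of the 38 subunits, double knockout over wild type, with its 95% interval, grouped by role. Epop (0.96) and Bcorl1 (0.36) lie right of 0 and Cbx8 (-0.69) left of it, and 31 of the 38 points lie within 1.2-fold of no difference.

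Levels were compared between genes per length, as CPM per kb of exons. In WT they ran from 43.6 ± 0.862 (mean ± SD, n = 3) for Rbbp7, a histone-binding subunit that also serves other chromatin complexes, to 0.182 ± 0.00862 for Scml2. After Rbbp7 came Cbx6 at 42.4 ± 0.217, Bap1 at 34.4 ± 3.21, Yaf2 at 31.8 ± 2.65 and Ezh1 at 17.5 ± 0.859 CPM per kb. The ranges of Bap1 and Yaf2 overlapped, so the order of these neighbours is not set. Rbbp7 overlaps Txlng on the opposite strand and Cbx6 overlaps Npcd on the same strand. With the strand setting unknown, the order of Rbbp7 and Cbx6 is uncertain as well. Summed over all 38 genes the level was 378 ± 0.911 CPM per kb in WT and 381 ± 3.402 in dKO (exact permutation test, two-sided, p = 0.4, where 3 against 3 libraries cannot go below 0.1).

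**Figure D2:**
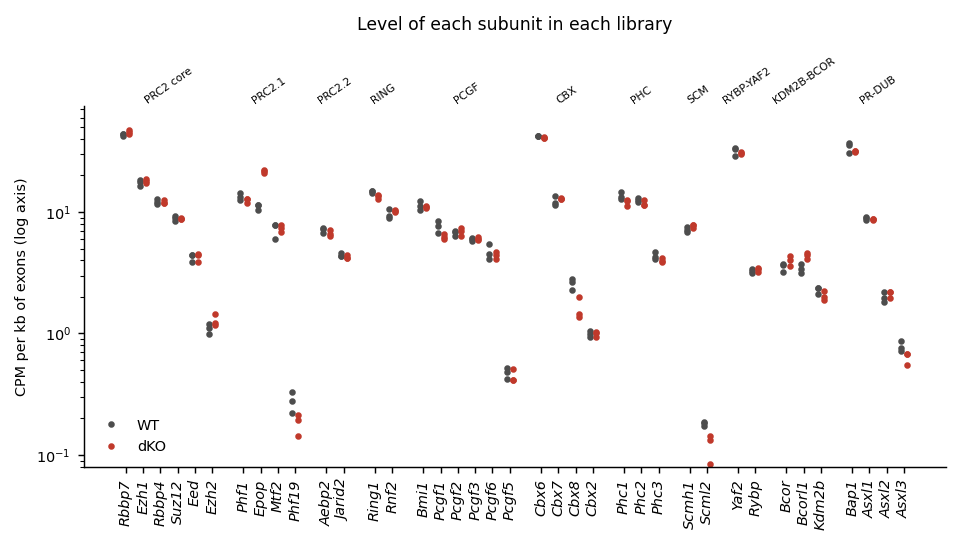
Level of each subunit in each library in CPM per kb of exons, on a log axis, with the WT and dKO libraries in different colours, grouped by role. Cbx6 is the highest of the CBX genes and Ezh1 of the pair of EZH genes, and the dKO points of Epop stand above its WT points.

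Among the core subunits of PRC2 0 of 6 changed, and 0 of the 6 had an unadjusted p under 0.05. Ezh1, the methyltransferase typical of resting cells, measured 123, 131 and 135 CPM in WT and 128, 139 and 135 CPM in dKO. Ezh2, typical of dividing cells, measured 6.63, 8.04 and 7.39 CPM in WT and 8.11, 7.83 and 9.64 CPM in dKO. Both overlapped between the groups. Of the EZH transcripts per kb, Ezh1 made up 94.1% ± 0.404 in WT and 93.4% ± 0.732 in dKO (exact permutation test, two-sided, p = 0.2). Suz12, the scaffold of the complex, had a log2 fold change of -0.01 (95% interval -0.15 to 0.13), and Eed, which binds the methyl mark, 0.00 (-0.21 to 0.22). The histone-binding subunits Rbbp4 and Rbbp7 had -0.01 (interval -0.14 to 0.12) and 0.06 (interval -0.06 to 0.19), and the enzyme Ezh1 0.05 (interval -0.09 to 0.18). The precision of Rbbp4, Rbbp7 and Ezh1 was like that of Suz12. Ezh2 was less certain, at 0.21 (interval -0.06 to 0.49), and so, to a lesser degree, was Eed. The summed core was 87.6 ± 1.85 CPM per kb in WT and 90.1 ± 2.27 in dKO.

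Accessory subunits divide PRC2 into PRC2.1, with a Polycomb-like protein (MTF2, PHF1 or PHF19) and EPOP or a PALI protein, and PRC2.2, with JARID2 and AEBP2. Epop, whose product links PRC2 to Elongin B and C, measured 26.6, 23.9 and 26.4 CPM in WT and 48.4, 50.4 and 50.9 CPM in dKO. Every dKO library lay above every WT library, with a gap far wider than the spread within either group. The level rose by 94.9% (95% interval 75.3 to 117%), a log2 fold change of 0.96 (SE 0.0709, edgeR, Benjamini-Hochberg adjusted p = 7.16e-07). It passed in each of 13 alternative settings of normalization, filter, test and libraries, with log2 fold changes of 0.91 to 0.99. Epop (ENSMUSG00000043439) has 2314 exonic bases and lies on chromosome 11 from 97627389 to 97629702 on the minus strand (GRCm38), where 0 other annotated genes overlap it.

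The other accessory genes did not pass. Phf1, the most abundant accessory gene per kb in WT, had a log2 fold change of -0.11 (95% interval -0.26 to 0.05), and Mtf2, another Polycomb-like gene, 0.03 (-0.18 to 0.23). Of the PRC2.2 genes, Jarid2 had -0.05 (-0.19 to 0.09) and Aebp2 -0.09 (-0.23 to 0.05). Phf19, the third Polycomb-like gene, measured 1.12, 1.67 and 1.41 CPM in WT and 0.969, 0.721 and 1.07 CPM in dKO, from 14 to 32 reads per library. Its groups did not overlap, but the log2 fold change of -0.60 was uncertain (SE 0.271, edgeR, Benjamini-Hochberg adjusted p = 0.230). Per kb, the order of the leading accessory transcripts turned. Epop lay at 10.3 to 11.5 CPM per kb in the WT libraries, below Phf1 at 12.6 to 14.3, and at 20.9 to 22.0 in the dKO libraries, above Phf1 at 11.9 to 12.7. Phf1 overlaps Cuta on the opposite strand, and with the strand setting unknown its level, and so this order, may include reads of Cuta.

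As a share of the 6 accessory transcripts per kb, Epop made up 25.5% ± 2.11 in WT and 41.1% ± 1.46 in dKO (mean ± SD, n = 3 each), a difference of 15.6 percentage points that was 9.26 points when CPM were used without exon length. The 4 PRC2.1 genes together made up 73.5% ± 0.321 in WT and 79.1% ± 0.406 in dKO. In both cases the groups did not overlap, and the exact permutation test (two-sided) gave p = 0.1, the smallest that 3 against 3 libraries allow, and 0.27 after Benjamini-Hochberg adjustment over the 27 shares computed. In level, the summed PRC2.1 transcripts were 31.9 ± 0.973 CPM per kb in WT and 41.5 ± 0.792 in dKO. The summed PRC2.2 transcripts were 11.5 ± 0.448 CPM per kb in WT and 11.0 ± 0.345 in dKO. Epop is part of the PRC2.1 sum and share, so neither is a result apart from its rise. The remaining PRC2.1 genes showed no such rise. From WT to dKO, Phf1 went from 13.4 to 12.4 CPM per kb, Mtf2 from 7.21 to 7.34 and Phf19 from 0.278 to 0.182. The partners of EPOP did not pass: Elob had a log2 fold change of 0.06 (95% interval -0.14 to 0.25) and Eloc -0.08 (-0.22 to 0.05). Nor did Lcor (0.05, interval -0.55 to 0.65) and Lcorl (-0.11, interval -0.32 to 0.10), the genes that give rise to PALI proteins, whose reads are not split by isoform in these counts.

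**Figure D3:**
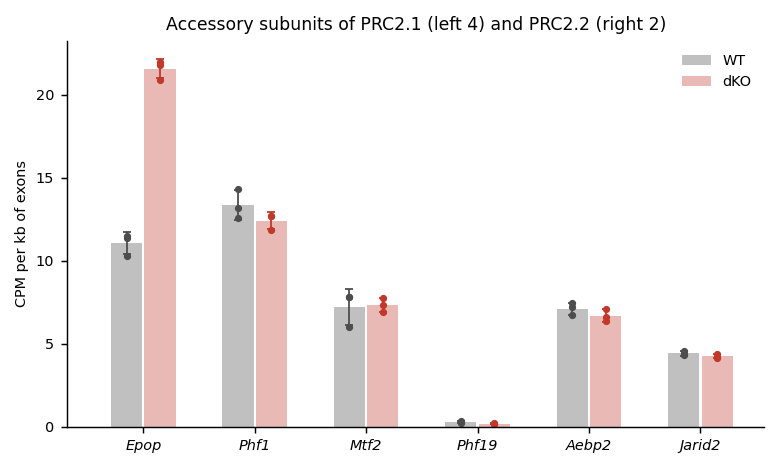
Accessory subunits of PRC2 in CPM per kb of exons, by group, with the 3 libraries of each group as points and the mean ± SD. Epop goes from 11.1 to 21.6 CPM per kb, and the other 5 genes did not pass the test.

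In PRC1, the E3 ligase genes did not pass. Ring1 measured 46.5, 48.4 and 48.4 CPM in WT and 44.5, 41.3 and 44.1 CPM in dKO. The dKO values all lay below the WT values, by a log2 fold change of -0.14 (SE 0.0638, edgeR, Benjamini-Hochberg adjusted p = 0.227). Its paralogue Rnf2, which overlaps Trmt1l on the opposite strand, had 0.08 (95% interval -0.08 to 0.25). Of the pair's transcripts per kb, Ring1 gave 60.6% ± 2.83 in WT and 56.8% ± 0.529 in dKO, without overlap (exact permutation test, two-sided, p = 0.1, adjusted 0.27).

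The PCGF protein defines which kind of PRC1 is formed, and 0 of 6 PCGF genes changed. Bmi1 and Pcgf2, of canonical PRC1, had log2 fold changes of -0.04 (95% interval -0.19 to 0.11) and 0.05 (-0.14 to 0.23). Pcgf3 and Pcgf5, of the variant PRC1 that also holds AUTS2, had 0.02 (-0.11 to 0.15) and -0.09 (-0.39 to 0.22). Pcgf6, of the variant complex with L3MBTL2, E2F6 and MGA, had -0.09 (-0.32 to 0.13). Pcgf1, which defines the variant complex with KDM2B and BCOR, measured 11.2, 13.9 and 12.8 CPM in WT and 9.84, 10.2 and 11.0 CPM in dKO. The dKO libraries were all lower, by a log2 fold change of -0.29 (SE 0.1096) that did not pass (edgeR, Benjamini-Hochberg adjusted p = 0.153). Of the PCGF transcripts per kb, Bmi1 gave most, with 30.8% ± 0.629 in WT and 31.4% ± 0.261 in dKO, and the difference in this share turned from 0.592 to -0.157 percentage points when CPM were used without exon length.

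CBX proteins place canonical PRC1 on methylated lysine 27. Cbx8 measured 9.74, 8.36 and 10.4 CPM in WT and 5.35, 7.32 and 5.02 CPM in dKO. All dKO libraries were below all WT libraries, and the closest were the second replicates of both groups. The level fell by 37.8% (95% interval -50.4 to -22.0%), a log2 fold change of -0.69 (SE 0.152, edgeR, Benjamini-Hochberg adjusted p = 0.0124). The call rests on 99 to 199 reads per library. It was lost without dKO replicate 1 (log2 fold change -0.62, edgeR, Benjamini-Hochberg adjusted p = 0.0585) or dKO replicate 3 (-0.58, adjusted p = 0.0790). Cbx8 (ENSMUSG00000025578) lies on chromosome 11 from 119036305 to 119040969 on the minus strand (GRCm38).

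The other 3 CBX genes among the 38 did not pass. Cbx6, which gave 72.8% ± 1.33 of the summed transcripts of these 4 genes per kb in WT, had a log2 fold change of -0.05 (95% interval -0.16 to 0.06). It overlaps Npcd on the same strand, so its counts are uncertain where the counting could split them. Cbx7 had 0.07 (-0.07 to 0.21) and Cbx2 0.01 (-0.30 to 0.32). Of the CBX transcripts per kb, Cbx8 gave 4.43% ± 0.424 in WT and 2.84% ± 0.538 in dKO, and Cbx7 21.1% ± 1.245 in WT and 22.8% ± 0.276 in dKO.

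Of the PHC genes, whose SAM domains polymerise, 0 of 3 passed. Phc1 measured 67.3, 76.9 and 70.1 CPM in WT and 59.7, 66.6 and 65.2 CPM in dKO, without overlap (log2 fold change -0.16, SE 0.0685, edgeR, Benjamini-Hochberg adjusted p = 0.198). The lowest WT and the highest dKO library of Phc1 lay closer together than the libraries within either group. Phc2 had -0.08 (95% interval -0.21 to 0.06) and Phc3 -0.12 (-0.26 to 0.02). Scmh1, another SAM domain protein of PRC1, had 0.10 (-0.04 to 0.23). Scml2, its relative known from the germline, gave 10 to 22 reads per library and -0.59 (-1.21 to 0.03). Rybp and Yaf2, which take the place of CBX in variant PRC1, had 0.04 (-0.15 to 0.23) and -0.04 (-0.19 to 0.10), and Rybp gave only 9.37% ± 0.739 of the pair's transcripts per kb in WT.

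KDM2B carries a CXXC domain that brings variant PRC1 to unmethylated CpG islands, and BCOR or BCORL1 joins it there. Bcorl1 measured 29.1, 31.7 and 26.96 CPM in WT and 35.1, 39.5 and 37.9 CPM in dKO. Every dKO library lay above every WT library. The level rose by 28.3% (95% interval 13.8 to 44.7%), a log2 fold change of 0.36 (SE 0.0806, edgeR, Benjamini-Hochberg adjusted p = 0.0134). The call was lost without WT replicate 1 (log2 fold change 0.36, edgeR, Benjamini-Hochberg adjusted p = 0.0510), dKO replicate 2 (0.32, adjusted p = 0.0742) or dKO replicate 3 (0.35, adjusted p = 0.0690). Bcorl1 (ENSMUSG00000036959) lies on chromosome X from 48341358 to 48408049 on the plus strand (GRCm38).

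Its paralogue Bcor, also on chromosome X, measured 32.3, 31.7 and 27.6 CPM in WT and 34.9, 37.5 and 31.0 CPM in dKO. These overlapped, and the log2 fold change of 0.17 (95% interval -0.02 to 0.36) did not pass. Of the pair's transcripts per kb, Bcor gave 50.7% ± 1.35 in WT and 47.4% ± 2.51 in dKO, without overlap (exact permutation test, two-sided, p = 0.1, adjusted 0.27). Kdm2b, which overlaps Rnf34 on the opposite strand, had a log2 fold change of -0.16 (-0.35 to 0.03). Usp7, a deubiquitinase found with this complex, had -0.03 (-0.18 to 0.11).

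In PR-DUB 0 of 4 genes changed. Bap1, the deubiquitinase, measured 168, 144 and 172 CPM in WT and 147, 149 and 148 CPM in dKO. The low WT replicate 2 lay below the dKO libraries, and the log2 fold change was -0.13 (95% interval -0.27 to 0.02). Without WT replicate 2 it was -0.20 and passed (edgeR, Benjamini-Hochberg adjusted p = 0.0439). Asxl1, which gave 76.1% ± 0.619 of the ASXL transcripts per kb in WT, had -0.02 (-0.14 to 0.11) and Asxl2 0.09 (-0.09 to 0.27). Asxl3, the least abundant ASXL gene, measured 13.6, 11.2 and 11.8 CPM in WT and 10.6, 10.6 and 8.47 CPM in dKO, lower without overlap but without passing (log2 fold change -0.30, SE 0.120, edgeR, Benjamini-Hochberg adjusted p = 0.167).

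**Figure D4:**
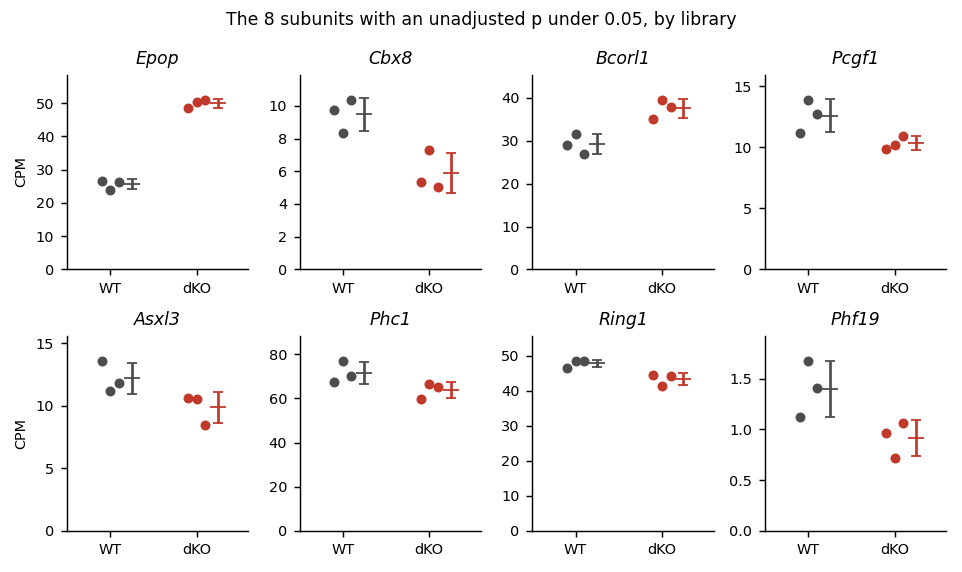
CPM in each library for the 8 subunits with an unadjusted p under 0.05, by group, with libraries as points and the mean ± SD. Epop stands far apart between groups, whereas the groups of Phc1 and Asxl3 come close to each other.

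These 8 subunits with an unadjusted p under 0.05 are 21.1% of the 38, against 20.2% of all tested genes. The groups did not overlap for 10 subunits (26.3%), against 25.2% of all tested genes. Of these 10, Epop and Bcorl1 were higher in dKO and 8 were lower, namely Cbx8, Pcgf1, Asxl3, Phc1, Ring1, Phf19, Scml2 and Cbx6. Taken without direction, both shares lie near those of all genes. By direction, 5.26% of the subunits were higher and 21.1% lower without overlap, against 14.0% and 11.2% of all tested genes, a split that was not tested.

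The subunits lie on 16 chromosomes, with 6 on chromosome 11 and 4 on X. Epop and Pcgf2 are 59.1 kb apart, Cbx2 and Cbx8 5035 bases, and Cbx6 and Cbx7 81.1 kb, and in each case at most 1 of the pair changed. Among the 30 nearest tested neighbours of Epop, Cbx8 and Bcorl1 (5 on each side of each), 2 rose (6.67%, against 5.90% of all tested genes) and 0 fell, a share near that of all genes. Around Epop 0 of 10 changed. Elf4, an ETS transcription factor gene whose 3′ end faces that of Bcorl1 across 2997 bases, measured 1.12, 2.35 and 1.56 CPM in WT and 4.03, 3.61 and 4.31 CPM in dKO (log2 fold change 1.25, SE 0.229, edgeR, Benjamini-Hochberg adjusted p = 0.00331). Whether reads of either gene run into the other was not tested, and the sources used here give no strand setting for the counting. Gaa, the lysosomal glucosidase, lies 227 kb from Cbx8 and went up from 438 ± 43.3 to 601 ± 9.57 CPM.

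**Figure D5:**
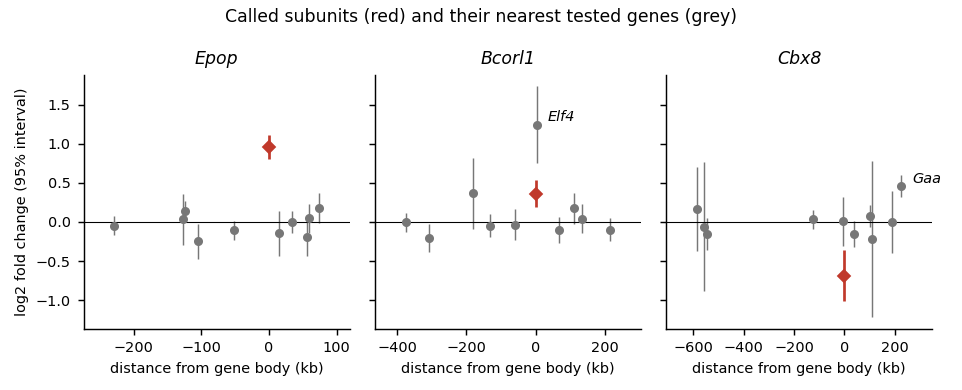
Log2 fold change with its 95% interval for Epop, Cbx8 and Bcorl1 and their 5 nearest tested genes on each side, against the distance between gene bodies in kb. Elf4 beside Bcorl1 and Gaa near Cbx8 rose, and the other 28 neighbours lay between -0.25 and 0.37.

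RefSeq promoter windows on GRCm38.p6, from 250 bases before to 50 after a start site, matched 32 of the 38 subunits with 45 windows. Of the 3 that changed, Cbx8 and Bcorl1 have 1 window each. They are shown as windows of subunits that changed. Both hold the E-box CACGTG, in capitals, which reads the same on both strands. The Cbx8 window is chr11:119040864-119041163 (minus strand) and the Bcorl1 window chrX:48341108-48341407 (plus strand), both written 5′ to 3′ on the gene's strand.
Cbx8: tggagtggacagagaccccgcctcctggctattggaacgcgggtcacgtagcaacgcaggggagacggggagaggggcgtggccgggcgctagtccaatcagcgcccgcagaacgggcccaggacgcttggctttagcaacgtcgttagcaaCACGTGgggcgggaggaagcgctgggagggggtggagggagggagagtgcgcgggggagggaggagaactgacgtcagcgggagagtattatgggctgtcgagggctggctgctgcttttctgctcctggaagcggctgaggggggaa
Bcorl1: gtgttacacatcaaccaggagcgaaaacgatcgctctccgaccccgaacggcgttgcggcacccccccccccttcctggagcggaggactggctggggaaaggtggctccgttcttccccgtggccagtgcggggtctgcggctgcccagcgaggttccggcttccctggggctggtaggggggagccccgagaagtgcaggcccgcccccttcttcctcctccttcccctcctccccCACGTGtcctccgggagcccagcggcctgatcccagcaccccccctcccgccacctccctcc

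The motif begins at base 153 of the Cbx8 window and base 239 of the Bcorl1 window, 98 and 12 bases before the start site. It occurred in 10 of the 45 subunit windows (22.2%), in 9.34% of the windows of all tested genes and in 7.15% of all 32851 windows of 300 bases. The other 8 subunits with it were Bmi1, Phc2, Phc3, Rbbp4, Pcgf2, Asxl2, Bap1 and Cbx6, of which 0 changed. The motif GGCGGGAA, of the kind bound by E2F factors and searched on both strands, occurred in 3 of the 45 windows (6.67%), those of Asxl1, Scmh1 and Pcgf5. It occurred in 3.66% of the windows of tested genes and in neither printed window. CpG dinucleotides numbered 24 in the Cbx8 window and 21 in that of Bcorl1, with a median of 23 over the subunits' windows and 19 over those of tested genes. A match describes these letters and is not a binding site.

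Of 41 listed partners of the Polycomb complexes, 37 were tested, of which 4 rose (10.8%, against 5.90% of all tested genes) and 0 fell (against 1.05%), with a median log2 fold change of -0.03, against -0.01 for all tested genes. The partners were listed with earlier results of these data known, so this share is no test of them as a set. The 4 that rose passed in each of the 13 alternative settings. Samd11, a SAM domain protein found with PRC1 in photoreceptors, measured 1.73, 1.097 and 1.14 CPM in WT and 13.1, 17.4 and 14.7 CPM in dKO (log2 fold change 3.50, SE 0.182, edgeR, Benjamini-Hochberg adjusted p = 2.48e-08). L3mbtl3, a reader of methylated lysine with MBT repeats, went up from 25.7 ± 1.67 to 50.2 ± 1.98 CPM (edgeR, Benjamini-Hochberg adjusted p = 9.73e-07). Samd1, a CpG island protein known to bind L3MBTL3 and KDM1A, went up from 17.0 ± 0.523 to 30.2 ± 1.66 CPM (edgeR, Benjamini-Hochberg adjusted p = 1.17e-05). Hdac1, a deacetylase shared with the CoREST complex of KDM1A, went up from 10.2 ± 0.491 to 14.8 ± 0.194 CPM (edgeR, Benjamini-Hochberg adjusted p = 0.00212). All 4 were higher in every dKO library than in any WT library.

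In the other complexes, no tested gene passed. Of 8 genes of the PCGF6 complex 0 changed, with log2 fold changes from -0.16 for L3mbtl2 to 0.14 for Mga. Of 8 genes of the PCGF3 and PCGF5 complexes 0 changed (-0.18 for Fbrs to 0.04 for Csnk2b). Of 11 genes of PR-DUB and its partners 0 changed (-0.30 for Asxl3 to 0.09 for Asxl2).

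Classical Polycomb targets, mostly developmental regulators, were listed as well, 131 in all, also with earlier results of these data known. Of 39 HOX genes among them 32 had 0 reads in all 6 libraries and 0 could be tested, and together they gave 3 to 5 reads per WT library and 2 to 5 per dKO library. Cdkn2a, a cell cycle inhibitor that Polycomb is known to silence, had 4 reads over the WT libraries and 1 over the dKO libraries. Of all 131 targets 33 passed the filter on low counts, of which 9 rose (27.3%, against 5.90% of all tested genes) and 0 fell (against 1.05%). A near-silent target reaches the minimum count more easily when dKO reads are many, so these counts do not speak for the list.

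The 9 were signalling, transcription factor and RNA-binding genes. Wnt10b, a secreted WNT ligand, measured 0.255, 0.731 and 0.312 CPM in WT and 3.11, 2.42 and 3.04 CPM in dKO. Wnt1, its neighbour on chromosome 15, measured 0.357, 0.366 and 0.260 CPM in WT and 1.68, 2.42 and 1.93 CPM in dKO. Both passed the filter on low counts only through their dKO libraries, so the lack of overlap between their groups is no separate support. Bhlhe23, a helix-loop-helix factor, had 3 reads over the WT libraries and 228 over the dKO libraries (ratio per library size 76.1, 95% counting interval 25.7 to 372). Fgf3, a growth factor, had 1 and 82 (82.1, interval 14.3 to 3281). Bhlhe23 and Fgf3, like Igf2bp2, also passed that filter only through their dKO libraries. Sox18, a factor of blood vessels, went up from 7.88 ± 0.511 to 12.9 ± 2.45 CPM. Of the 6 vascular markers 0 rose, though their sum was higher in dKO without overlap. Sox17 (log2 fold change 0.08) and Sox7 (0.26), also on the list of targets, did not pass. Whether vascular cells have a part in the rise of Sox18 was not tested. The calls of Igf2bp2 (log2 fold change 1.37), Wnt10a (0.68), Tbx1 (0.89) and Neurog2 (0.99) were lost in DESeq2, which called 5 targets, and on leaving out single libraries, with 5 called without WT replicate 1. The largest values so reached (edgeR, Benjamini-Hochberg adjusted p) were 0.129 for Igf2bp2 without dKO replicate 3, 0.127 for Wnt10a without dKO replicate 3, 0.219 for Tbx1 without dKO replicate 3 and 0.229 for Neurog2 without dKO replicate 2.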

How the data were processed

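The values used were raw read counts per gene, deposited by the authors as 1 column per library over 48795 Ensembl identifiers. Per the submitters' processing notes, cutadapt 1.18, HISAT2 and HTSeq 0.11.1 were used with GRCm38 (mm10). The HISAT2 version, annotation release and strand setting were not given in the sources used here. Counts are therefore uncertain for subunits that overlap a gene on the opposite strand, among them Rbbp4, Rbbp7, Mtf2 and Cbx7. Symbols, positions and exon lengths (union of exons) came from GENCODE M21.

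Low counts were removed by filterByExpr with default settings (minimum count 10, minimum total 15), TMM scaled the libraries, and edgeR's quasi-likelihood test compared dKO with WT, group being the only term, with Benjamini-Hochberg adjustment over 16861 genes. SE is the absolute log2 fold change divided by the square root of F. Alternatives were RLE scaling, library size alone, no filter, at least 1 CPM in 3 libraries, DESeq2, limma-voom, a replicate block, shares taken without exon length and leaving out each library. The members and lists were chosen with earlier results of these data known. The labels do not say whether libraries of a group come from separate animals, so p-values may measure only technical spread between these samples. Intervals on ratios of reads cover counting error only. All 38 members are given, with values by library for those with an unadjusted p under 0.05 and for further members with a leading role. Partners and targets were named if called (at most 6 by smallest p). Cdkn2a, Sox7, Sox17, the further called targets, the other complex partners and the library values of Ezh1, Ezh2, Bcor and Bap1 were chosen after values were seen. R 4.3.3 was used, along with edgeR 4.0.16, DESeq2 1.42.0 and limma 3.58.1.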

Additional observations from a re-analysis of the deposited data

How the results depend on the processing

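The counts of subunits that rose (2) and fell (1) were the same under RLE scaling, library size alone, no filter, at least 1 CPM in 3 libraries, DESeq2, limma-voom and an adjusted p under 0.1, and were 1 and 0 at an adjusted p under 0.01. With a replicate block they were 2 and 1, with 4 partners, 7 targets and 2 neighbours that rose. Deviations of same-numbered libraries correlated at 0.00931, -0.0342 and -0.0263, and those of differently numbered libraries at -0.148 to 0.164. With 3 libraries per group, these values cannot decide whether libraries were paired. Leaving out 1 library gave 1 to 2 rises and 0 to 2 falls among the subunits and 5 to 9 rises among the targets, and DESeq2 called 5 targets. With no filter, 82 targets could be tested, of which 10 rose and 0 fell, against 4.05% and 0.969% of all 28783 genes tested at that setting. The targets were listed with earlier results of these data known, so this share is no test of them as a set.

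Small differences changed sign. With library size alone the log2 fold changes were 0.0051 for Asxl1, 0.010 for Rbbp4 and 0.011 for Suz12. On leaving out 1 library the ranges were -0.18 to 0.023 for Pcgf6, -0.11 to 0.00017 for Yaf2, -0.097 to 0.017 for Bmi1, -0.0020 to 0.046 for Pcgf3, -0.040 to 0.00067 for Asxl1, -0.093 to 0.087 for Mtf2, -0.042 to 0.024 for Rbbp4, -0.042 to 0.024 for Suz12, -0.030 to 0.053 for Cbx2 and -0.059 to 0.071 for Eed. Without exon length the difference in share, dKO minus WT, was -0.632 percentage points for Cbx8, against -1.59 with it. Cbx8 has 3.675 kb of exons and Cbx6 10.609 kb, so division by length gives Cbx8 more weight in the sum. Depth limits Phf19 and Scml2, with 10 to 32 reads per library.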
